A study of Mus musculus with 18 samples.

Results

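The genes described here encode the receptor chains that use or partner the common gamma chain, the kinase that this chain binds, and the transcription factor pair STAT5A and STAT5B. There were 10 of them: the receptor genes Il2ra, Il2rb, Il2rg, Il4ra, Il7r, Il9r and Il21r, the kinase gene Jak3, and Stat5a and Stat5b. They were found by symbol among 23284 gene symbols in the mouse tables and 25434 in the human tables, where the IL-4 receptor gene is written IL4R, and all 10 were present in both. Levels are FPKM, fragments scaled to transcript length and to the mapped fragments of the library, so genes of different length can be set side by side within a library.

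The common gamma chain is a shared subunit of the receptors for IL-2, IL-4, IL-7, IL-9, IL-15 and IL-21. Each cytokine is recognised through its own alpha or beta chain, the gamma chain brings JAK3 to the complex, and phosphorylated STAT5 dimers carry much of the IL-2, IL-7 and IL-9 signal to the nucleus, while IL-4 acts mainly through STAT6. In T helper 2 (Th2) cells the IL-2 and STAT5 axis is known for survival and for access to the type 2 cytokine genes.

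The series has 18 RNA sequencing libraries in 6 groups of 3, all labelled BALB/c. Memory Th2 cells selected for high ST2, the IL-33 receptor, were kept for 3 days with IL-2 alone (libraries 1, 3 and 5) or with IL-2 plus IL-33 (libraries 2, 4 and 6), so IL-2 was given to both groups. Eosinophils were kept for 3 days without or with amphiregulin, an epidermal growth factor family ligand (libraries 2, 3 and 4 of each). Whole lung came from OVA-treated mice that were wild type or dGATA (libraries 1, 2 and 3 of each). The dGATA mice are labelled knock-outs, with no further account of the allele, and the study's design text names HDM where the lung labels name OVA. The labels give no ages and do not say whether replicates were separate animals, cultures or donors, so a p-value covers the spread between libraries alone, which may be technical. The eosinophil tables hold human gene symbols and human coordinates although the labels name mouse. They were read as human, with a build that no source used here gives for them.

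The cell labels were set against marker genes. In the Th2 libraries the 5 Th2 markers Gata3, Il4, Il5, Il13 and Il1rl1 summed to between 9106 and 22058 FPKM, and the B cell, neutrophil, mast cell and fibroblast lists to at most 1.55 FPKM each. The lists for endothelium (13.1 to 41.7 FPKM), macrophages (4.41 to 8.59 FPKM), epithelium (2.77 to 6.996 FPKM) and dendritic cells (4.28 to 5.79 FPKM) were higher there. In the eosinophil libraries CCR3 lay between 28.5 and 136.5 FPKM, but EPX, eosinophil peroxidase, was at most 2.26 FPKM in 5 of 6 libraries. The neutrophil list, S100A8 and S100A9 included, summed to between 6738 and 21393 FPKM there, against 149 to 248.6 FPKM for the eosinophil list. The macrophage and monocyte list summed to between 337 and 1040 FPKM and exceeded the eosinophil list in every library. The mast cell and basophil list was at 433 FPKM in library 3 without amphiregulin and between 47.5 and 196 FPKM in the rest. Total depth is unknown. Against the library numbered lowest in the control group it ran from 0.669 to 1.34 in the Th2 cells, 0.363 to 1 in the eosinophils and 0.582 to 1 in the lung.

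Upstream sequences of 3 genes are shown because they belong to the pair of receptor genes with the largest differences under IL-33 on the log2(FPKM + 1) scale and to the gamma chain gene, which was not called. Each gives the 250 bases before the RefSeq transcript start in GRCm38.p6, on the gene's strand. Capitals mark a match to the NF-kB consensus in Il2ra, between 201 and 191 bases before the start, where 2 matches overlap. In Il7r they mark a TTCNNNGAA match, the spacing that STAT5 dimers bind, between 142 and 134 bases before the start. The Il2rg window holds neither.
Il2ra: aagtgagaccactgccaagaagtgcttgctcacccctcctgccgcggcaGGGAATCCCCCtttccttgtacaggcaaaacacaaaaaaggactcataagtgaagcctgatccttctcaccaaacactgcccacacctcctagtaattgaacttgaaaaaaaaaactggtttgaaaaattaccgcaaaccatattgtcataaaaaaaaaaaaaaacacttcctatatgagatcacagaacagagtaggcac
Il7r: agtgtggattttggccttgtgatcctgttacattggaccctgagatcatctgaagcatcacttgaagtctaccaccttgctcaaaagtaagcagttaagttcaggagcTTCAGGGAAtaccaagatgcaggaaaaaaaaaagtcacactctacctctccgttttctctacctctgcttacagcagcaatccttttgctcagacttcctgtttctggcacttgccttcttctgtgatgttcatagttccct
Il2rg: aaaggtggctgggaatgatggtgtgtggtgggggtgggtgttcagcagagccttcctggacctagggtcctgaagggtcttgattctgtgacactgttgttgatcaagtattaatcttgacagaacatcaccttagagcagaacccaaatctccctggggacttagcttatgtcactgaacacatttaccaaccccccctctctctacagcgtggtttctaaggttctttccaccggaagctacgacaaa

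These windows lie at chr2:11642542-11642791 (plus strand), chr15:9529877-9530126 (minus strand) and chrX:101268256-101268505 (minus strand). RefSeq entries were found for 9 of the 10 genes, in 11 windows, and both motifs were searched on both strands. TTCNNNGAA was found in the Il7r window and in no other of the 11. The NF-kB consensus was found in Il2ra and in the second window of Stat5a. Of 32851 windows of all genes, 7.02% hold TTCNNNGAA and 7.25% the NF-kB consensus, so a match is a description of the letters and no evidence of binding.

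The 10 genes were ordered differently in the 3 settings. In the Th2 cells Il2ra, Il2rg and Il2rb, the 3 chains of the high-affinity IL-2 receptor, held the first 3 ranks by mean FPKM. In the lung and the eosinophils Il2rg held rank 1 or 2, whereas Il2ra held rank 9 or 10. Il9r was the lowest of the 10 in both Th2 groups. These orders compare species, tissues and cultures and carry no test.

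**Figure D1:**
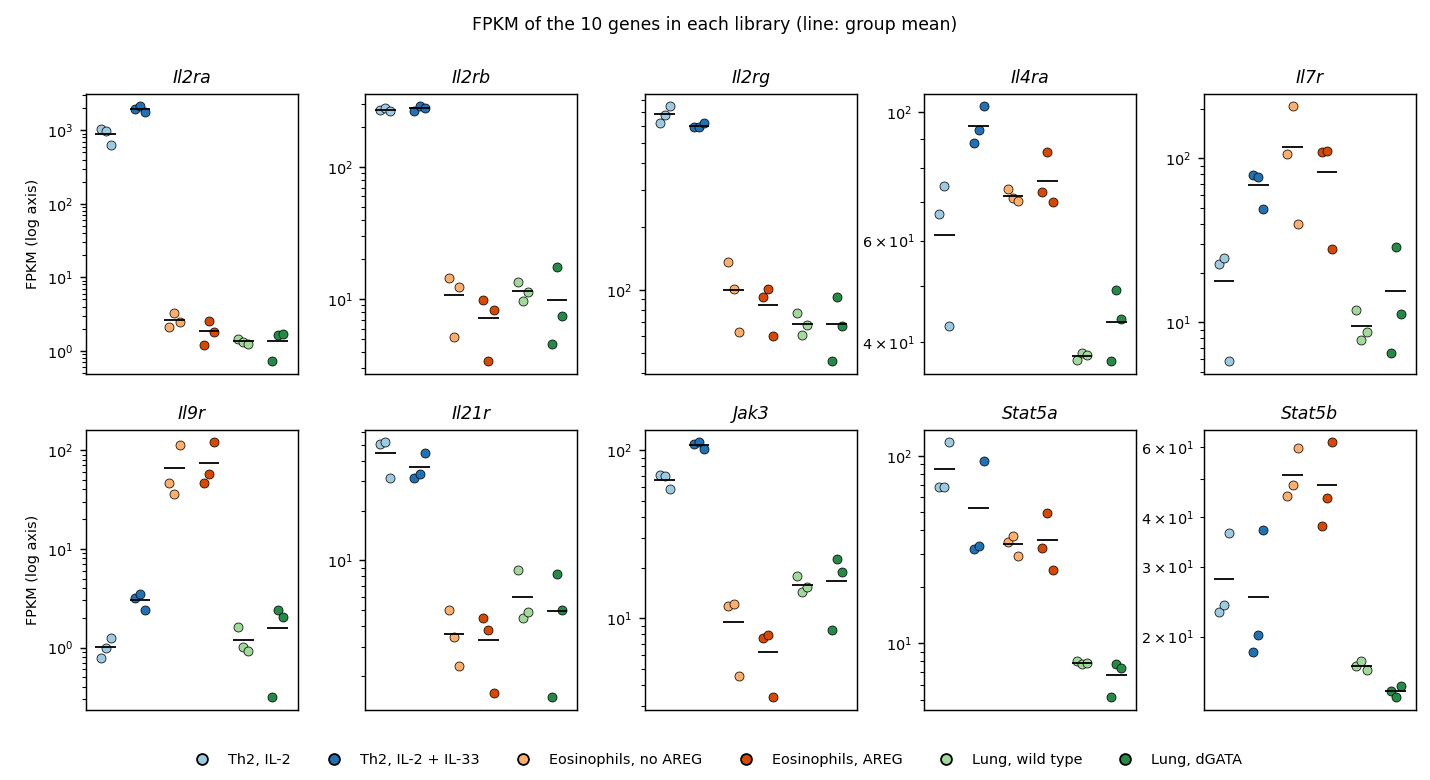
FPKM (log axis) of each of the 10 genes in each of the 18 libraries; points are libraries, coloured by group, and the black lines are group means (n = 3). Il2ra lies between 636 and 2118 FPKM in the Th2 libraries and at 3.31 FPKM or below elsewhere, while Il9r lies between 36.1 and 120 FPKM in the eosinophil libraries and at 3.47 FPKM or below elsewhere.

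In bulk RNA, fewer cells of a type and less RNA per cell cannot be told apart, and this holds for every level below. By level across the 6 groups, Il2ra, Il2rb, Il2rg, Il21r and Jak3 were highest in the Th2 cells, with no overlap between any Th2 library and any library of the other 4 groups. Il2ra averaged 1946 ± 170 FPKM (SD, n = 3) with IL-33 and 882 ± 215 FPKM with IL-2 alone, then 2.61 ± 0.628 and 1.85 ± 0.674 FPKM in eosinophils without and with amphiregulin, and 1.36 ± 0.544 and 1.35 ± 0.103 FPKM in dGATA and wild-type lung. The last 4 of these groups overlapped their neighbours in that order. Il2rg averaged 682 ± 62.4 and 604 ± 14.1 FPKM in the Th2 groups and between 68.6 and 99.9 FPKM in the other 4, which overlapped.

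The IL-9 receptor and STAT5B went the other way. IL9R averaged 74.7 ± 39.5 and 65.2 ± 41.9 FPKM in the eosinophils with and without amphiregulin, with overlapping libraries, against 3.020 ± 0.561 FPKM in the next group, the Th2 cells with IL-33. IL9R has related copies in the human genome, and here it is the sum of a pair of entries with identical values, so its level is uncertain. STAT5B averaged 51.0 ± 7.64 and 48.1 ± 12.2 FPKM in the eosinophils, above every Th2 and lung library, while Stat5a averaged 84.8 ± 28.7 FPKM in Th2 cells with IL-2 alone and 7.88 ± 0.172 FPKM in wild-type lung. Il7r, the receptor chain for IL-7 and, with Crlf2, for TSLP, was highest by mean in eosinophils, at 118 ± 84.7 and 82.8 ± 47.5 FPKM, but both eosinophil groups overlapped the Th2 cells with IL-33, at 68.5 ± 16.7 FPKM. Il4ra, the chain shared by the IL-4 and IL-13 receptors, varied least, from 37.9 ± 0.571 FPKM in wild-type lung to 94.7 ± 7.04 FPKM in Th2 cells with IL-33.

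The Th2 comparison asks what IL-33 added to IL-2 did to these genes. Among the receptor genes Il2ra rose 2.21-fold, Il7r 3.85-fold, Il9r 3.013-fold and Il4ra 1.55-fold, and Jak3 rose 1.62-fold. Il2rb, Il2rg, Il21r, Stat5a and Stat5b were not called. In all, 5 of the 10 genes were called higher and 0 lower with limma at an adjusted p below 0.05, where 16.3% of the 10296 genes tested were called higher and 25.7% lower, 42.1% in all. The unadjusted p was below 0.05 for the same 5 genes and for 51.6% of all genes tested. The median log2 difference was 0.35 over the 10 genes and -0.11 over all genes tested.

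Il2ra (chromosome 2, 11642792 to 11693194 in mm10) encodes the alpha chain that gives the IL-2 receptor its high affinity. It was at 1035, 976 and 636 FPKM in libraries 1, 3 and 5 with IL-2 alone, and at 1942, 2118 and 1779 FPKM in libraries 2, 4 and 6 with IL-33. Every library with IL-33 lay above every library without it, and library 5 was the lowest of the 6. On the log2(FPKM + 1) scale the difference was 1.17 (SE 0.2005, adjusted p = 0.00445, limma), and it was called under all 19 alternatives, with an adjusted p of at most 0.0229.

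Il7r (chromosome 15, 9506159 to 9529876) had the largest difference of the 10 genes. It was at 22.7, 24.8 and 5.81 FPKM with IL-2 alone and at 78.8, 77.5 and 49.2 FPKM with IL-33. Libraries 5 and 6 were each the lowest of their group, and the groups did not overlap. The log2 difference was 2.08 (SE 0.501, adjusted p = 0.0158, limma). The call was lost without library 2 or without library 4, where the adjusted p was at most 0.0597.

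Il4ra (chromosome 7, 125552282 to 125579474) was at 66.7, 74.6 and 42.7 FPKM with IL-2 alone and at 88.7, 93.1 and 102.5 FPKM with IL-33. The groups did not overlap, although the gap between library 3 and library 2 was small. Its log2 difference was 0.66 (SE 0.199, adjusted p = 0.0353, limma). This was the least stable of the 5 calls: it held in 14 of 19 alternatives and was lost with no filter and without library 1, 2, 4 or 6, with an adjusted p of at most 0.0910.

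Il9r (chromosome 11, 32188997 to 32200279), the IL-9 receptor alpha chain, stayed the least abundant of the 10 in these cells. It was at 0.779, 0.984 and 1.24 FPKM with IL-2 alone and at 3.20, 3.47 and 2.39 FPKM with IL-33. The groups did not overlap. The log2(FPKM + 1) difference was 1.00 (SE 0.145, adjusted p = 0.00223, limma), a scale that understates changes of genes near 1 FPKM. The gene was called in all 18 alternatives in which it was tested. With IL-2 alone only library 5 reached 1 FPKM, so Il9r passed the filter through the libraries with IL-33. The filter thus favoured this direction, and the p-value does not allow for that.

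Il21r (chromosome 7, 125603429 to 125633570), the IL-21 receptor chain and the neighbour of Il4ra, did not rise with it. It was at 50.3, 51.7 and 31.7 FPKM with IL-2 alone and at 31.6, 33.2 and 44.9 FPKM with IL-33. The groups overlapped because libraries 5 and 6 were ordered the opposite way from the rest. The log2 difference was -0.26 (SE 0.215, adjusted p = 0.352, limma).

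For Il2rb and Il2rg the levels with and without IL-33 lay close together. Il2rb (chromosome 15, 78480549 to 78495066), the beta chain of the IL-2 and IL-15 receptors, was at 270, 279 and 267 FPKM with IL-2 alone and at 267, 289 and 283 FPKM with IL-33, so the groups overlapped, with a log2 difference of 0.04 (SE 0.0796, adjusted p = 0.713, limma). Il2rg (chromosome X, 101264387 to 101268206), the common gamma chain itself, was at 622, 680 and 746 FPKM with IL-2 alone and at 597, 594 and 620 FPKM with IL-33. All 3 libraries with IL-33 lay below all 3 without it, yet by little, and the log2 difference of -0.17 was not called (SE 0.103, adjusted p = 0.214, limma). In all, the groups did not overlap for 6 of the 10 genes, against 56.7% of all genes tested.

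Jak3 (chromosome 8, 71676383 to 71690577), the kinase that docks on the gamma chain, was at 70.6, 69.8 and 58.3 FPKM with IL-2 alone and at 108, 111 and 102.04 FPKM with IL-33. The libraries fell into tight groups that did not overlap. Its log2 difference was 0.69 (SE 0.0976, adjusted p = 0.00208, limma), called in 18 of 19 alternatives; in a model over all 12 mouse libraries the adjusted p was 0.0502.

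Stat5a (chromosome 11, 100859351 to 100885169) and Stat5b (chromosome 11, 100780731 to 100850585) are neighbours and close paralogs, and no source used here says how fragments matching both were assigned. Stat5a was at 68.6, 67.9 and 118 FPKM with IL-2 alone and at 31.97, 33.0 and 93.7 FPKM with IL-33. Libraries 5 and 6 were far above the others of their groups, so the groups overlapped, although each was lower with IL-33 among libraries of the same title spelling. Stat5b was at 23.1, 24.0 and 36.5 FPKM with IL-2 alone and at 18.3, 20.2 and 37.0 FPKM with IL-33, again with libraries 5 and 6 the highest. The log2 difference was -0.81 for Stat5a (SE 0.430, adjusted p = 0.168, limma) and -0.18 for Stat5b (SE 0.285, adjusted p = 0.634, limma).

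**Figure D2:**
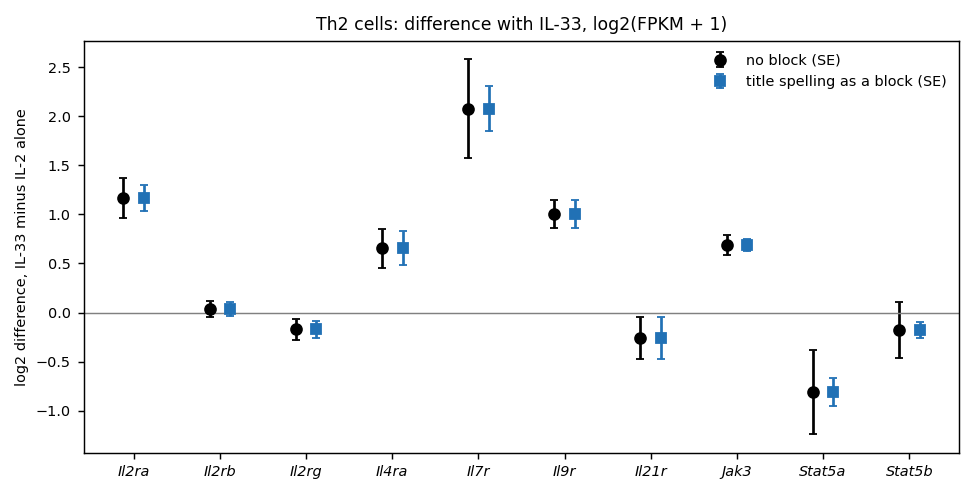
Difference with IL-33, as log2(FPKM + 1) with IL-33 minus IL-2 alone, for each of the 10 genes; circles show the fit without a block and squares the fit with the spelling of the titles as a block, each with its standard error. The Il7r difference of 2.08 is the largest, Il2rb at 0.04 the smallest, and the error of Stat5a narrows from 0.430 to 0.143 with the block.

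Libraries 5 and 6 stood apart from libraries 1 to 4: their titles spell ST2 high differently and their relative depths, 0.669 and 0.737, were the lowest. With the title spelling as a block, an alternative chosen after the data were seen, 5 genes were called higher and 1 lower, and Stat5a was the gene called lower (SE 0.143, adjusted p = 0.00326, limma); of all genes tested 56.6% were then called, 20.9% higher and 35.6% lower. In libraries 1 to 4 alone 5 genes were called higher and 3 lower, the latter being Stat5a, Stat5b and Il21r, where 56.8% of all genes tested were called. From linear FPKM, Stat5a differed by -1.07 log2 units between the means of libraries 2 and 4 and of libraries 1 and 3, and by -0.33 between libraries 6 and 5. For Il21r the corresponding values were -0.65 and 0.50, for Il7r 1.72 and 3.08, and for Il2ra 1.01 and 1.48; whether the spellings differ was not tested.

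Shares and ratios between the receptor genes are computed from the levels above and are no further support for the rise of Il2ra. By group mean Il2ra is the largest term of the sum, so its rise lowers the Il2rg share although Il2rg itself was not called. The 7 receptor genes together gave 1961 ± 200 FPKM with IL-2 alone and 3033 ± 165 FPKM with IL-33 (SD, n = 3). The Il2ra share of that sum was 44.5 ± 6.93% and 64.1 ± 2.17%. The Il2rg share ran from 30.1 to 43.1% with IL-2 alone and from 18.5 to 21.5% with IL-33, a difference of -15.3 percentage points between the means. The ratio of Il2ra to Il2rb was 3.83, 3.50 and 2.38 with IL-2 alone and 7.27, 7.34 and 6.29 with IL-33, a log2 difference of 1.13. Both measures separated the groups without overlap, and each gave an exact two-sided permutation p of 0.1, the smallest that 3 against 3 libraries allow (adjusted 0.225 over 9 ratio tests).

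**Figure D3:**
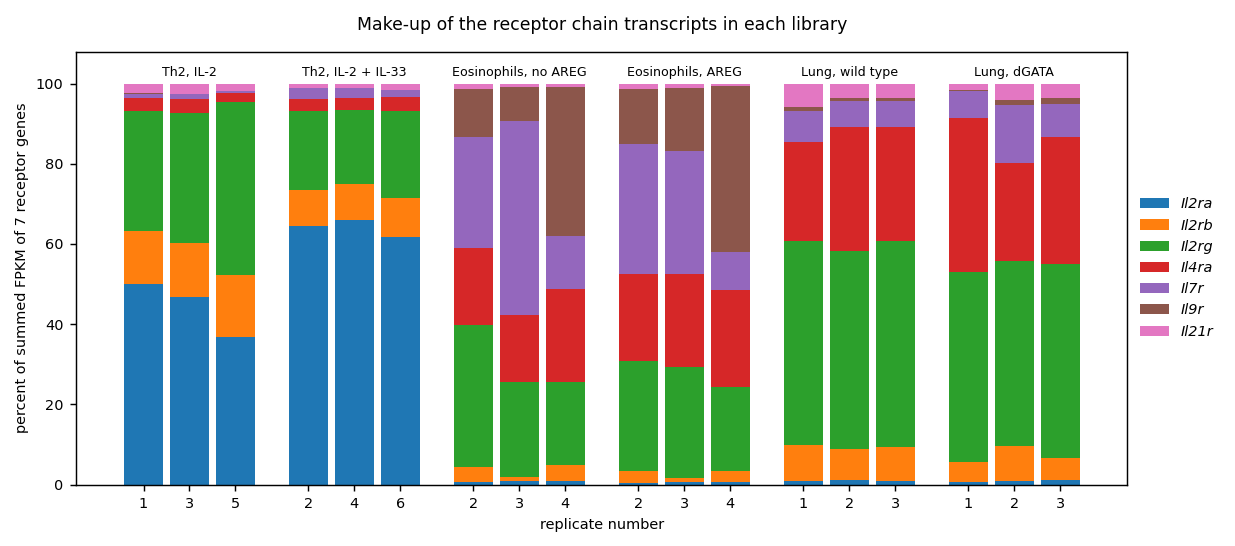
Share of each of the 7 receptor genes in their summed FPKM, in percent, with a bar for each of the 18 libraries and the replicate number on the horizontal axis. Il2ra (bottom) takes 36.8 to 50.1% in Th2 cells with IL-2 alone and 61.8 to 66.0% with IL-33, and at most 1.22% in any eosinophil or lung library.

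Stat5a exceeded Stat5b in all 6 Th2 libraries. The ratio of Stat5a to Stat5b was 2.97, 2.82 and 3.23 with IL-2 alone and 1.75, 1.63 and 2.53 with IL-33. The groups did not overlap although the levels of both genes did, with a log2 difference of -0.64 and an exact two-sided permutation p of 0.1 (adjusted 0.225). Elsewhere the ratio was below 1 in all but 1 library. It was 0.769, 0.775 and 0.492 in eosinophils without amphiregulin, 0.849, 1.11 and 0.397 with it, 0.479, 0.445 and 0.479 in wild-type lung and 0.353, 0.551 and 0.494 in dGATA lung. Those 2 comparisons overlapped, with exact two-sided permutation p of 0.8 and 1.

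**Figure D4:**
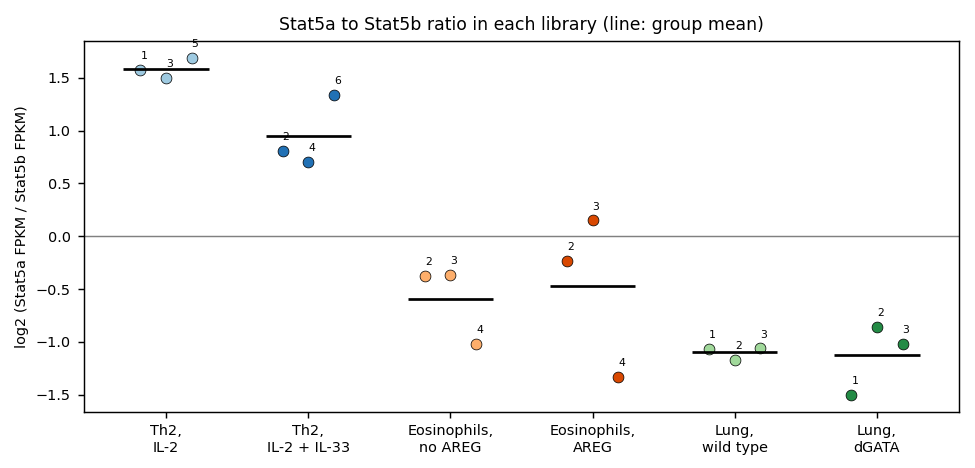
Log2 of the ratio of Stat5a FPKM to Stat5b FPKM in each library, with replicate numbers beside the points, group means as black lines (n = 3), and a grey line at equal levels. The Th2 libraries lie between 0.71 and 1.69, higher with IL-2 alone than with IL-33, and the lung libraries between -1.50 and -0.86.

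Around these genes, ligands, partner chains, kinases and phosphatases were examined in the Th2 cells, where 42.1% of all genes tested were called. Of 7 ligands, the gamma chain cytokines and Tslp, 4 were tested, of which Il4 and Il21 rose and Il2 and Il9 fell. Il2 was at 376, 412 and 1394 FPKM with IL-2 alone and at 33.5, 30.6 and 235 FPKM with IL-33, a log2 difference of -3.24 (adjusted p = 0.0215, limma). Libraries 5 and 6 were again the highest of their groups, and the groups did not overlap. The call for Il2 was lost with no filter and without library 5, 2 or 4, and the calls for Il4 and Il21 were each lost in 9 of 19 alternatives, whereas Il9 (478 ± 141 to 130 ± 95.6 FPKM, adjusted p = 0.0121, limma) was called in all 19. Il7, Il15 and Tslp were below the filter of 1 FPKM.

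Of 4 partner or related receptor chains, 3 were tested and 2 fell, where 25.7% of all genes tested were called lower. Il15ra, the private chain of the IL-15 receptor, fell from 34.6 ± 15.3 to 12.02 ± 3.023 FPKM (log2 difference -1.39, adjusted p = 0.0102, limma), the opposite direction from Il2ra, with which it shares Il2rb and Il2rg. Il13ra1, which pairs with Il4ra in the type II IL-4 receptor, fell from 3.17 ± 1.12 to 0.0848 ± 0.00387 FPKM (adjusted p = 0.000605, limma). It was at most 0.0872 FPKM with IL-33, so it passed the filter through the libraries with IL-2 alone. The filter thus favoured this direction, and the p-value does not allow for that. Crlf2, the partner of Il7r in the TSLP receptor, was at 50.03 ± 3.53 and 59.0 ± 8.62 FPKM and was not called (adjusted p = 0.157, limma). Il13ra2 was listed at 0.

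Of the 8 other Janus kinase and STAT genes tested, 0 rose and 5 fell, where 16.3% of all genes tested were called higher and 25.7% lower. Stat2, Jak2, Stat4 and Jak1 were among those that fell. Stat2, a transcription factor of the interferon response, fell from 62.7 ± 7.61 to 17.95 ± 4.07 FPKM (log2 difference -1.76, adjusted p = 0.000374, limma). For Jak2, Stat4 and Jak1 the log2 differences were -1.17, -0.55 and -0.32. Jak2 lost its call in 6 of 19 alternatives, Stat4 in the model over 12 libraries, and Jak1 lost it after rescaling to a common total (TPM), after median-of-ratios scaling and without library 3. The list's median log2 difference was -0.49, against -0.11 over all genes tested. Stat6, which carries the IL-4 signal, was at 43.0 ± 9.15 and 35.5 ± 3.19 FPKM and was not called (adjusted p = 0.206, limma). With the title spelling as a block Stat6 and Tyk2 were called lower as well (adjusted p = 0.0273 and 0.00130, limma).

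Of 14 genes taken as STAT5 targets 13 were tested, of which 3 rose and 2 fell, with a median log2 difference of 0.03. Of all genes tested 16.3% were called higher and 25.7% lower, 42.1% in all, so these counts are near the share over all genes. Socs3 rose from 31.6 ± 11.6 to 116 ± 15.8 FPKM and Socs2 from 36.6 ± 13.6 to 91.6 ± 14.3 FPKM, both inhibitors of cytokine receptor signalling (adjusted p = 0.00243 and 0.0102, limma). Osm, the cytokine oncostatin M, rose from 30.8 ± 1.38 to 54.8 ± 3.12 FPKM (adjusted p = 0.000445, limma). Myc fell from 219 ± 41.5 to 96.6 ± 56.6 FPKM and Bcl6 from 9.37 ± 2.39 to 5.36 ± 1.31 FPKM (adjusted p = 0.0261 and 0.0284, limma), and both calls were lost in several alternatives, without library 2 or 4 among them. Cish, a classical STAT5 target, was at 316 ± 19.0 and 334 ± 23.8 FPKM (adjusted p = 0.541, limma). With the title spelling as a block 4 rose and 4 fell, where 20.9% of all genes tested were called higher and 35.6% lower.

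Of 10 adaptors and phosphatases 9 were tested, 0 rose and 4 fell, with a median log2 difference of -0.21, where 25.7% of all genes tested were called lower and their median was -0.11. With the title spelling as a block 1 rose and 5 fell, where 20.9% of all genes tested were called higher and 35.6% lower. Ptpn6, the phosphatase SHP-1 that dampens cytokine receptors, fell from 74.1 ± 23.1 to 26.2 ± 1.68 FPKM, and Sh2b3, an adaptor that restrains Janus kinases, from 11.99 ± 3.64 to 3.34 ± 1.65 FPKM (log2 differences -1.43 and -1.61, adjusted p = 0.00182 and 0.00521, limma). Ptpn11 and Pik3cd fell by less, with log2 differences of -0.43 and -0.39. Pik3cd was not called after any of the 3 rescalings tried, and Ptpn11 not after rescaling to TPM nor without library 2 or 4.

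Markers moved with these genes. Of 6 T cell markers tested 4 were higher and 1 lower, where 16.3% of all genes tested were called higher and 25.7% lower. The T cell list summed to between 1038 and 1248 FPKM with IL-2 alone and between 1759 and 1843 FPKM with IL-33, while Cd3e was at 158 ± 13.5 and 163 ± 15.8 FPKM. Of the 5 Th2 markers 4 were higher. Ccr3 was the eosinophil marker, of 5 listed, that passed the filter, and it was higher, while Epx and Prg2 were at 0 in all 6 libraries. Klrd1 of the NK cell list, Epcam of the epithelium list and Pecam1 of the endothelium list were called lower, from 2.11 to 0.0870, from 6.16 to 3.22 and from 30.6 to 15.5 FPKM. Klrd1 was at most 0.169 FPKM with IL-33, so it passed the filter through the libraries with IL-2 alone. The regulatory T cell list summed to between 0.235 and 1.09 FPKM and between 1.26 and 1.56 FPKM, with Foxp3 at 0.365 ± 0.259 and 1.04 ± 0.104 FPKM. The part of these markers in the differences of the receptor genes was not tested.

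The genes whose pattern over the 12 mouse libraries was most like the 2 receptors with the largest differences on the log2(FPKM + 1) scale were found by the root mean square difference of centred log2(FPKM + 1), among 8816 genes. For Il7r they were Nfil3 (0.476), Dusp10 (0.483) and Slc16a3 (0.490). Nfil3, a basic leucine zipper factor, was at 18.1 ± 7.48 FPKM with IL-2 alone, 71.4 ± 16.9 FPKM with IL-33, and 7.61 ± 1.15 and 7.69 ± 2.73 FPKM in wild-type and dGATA lung. For Il2ra they were Il5 (0.555), Il24 (0.627) and Gzmb (0.763). Il24 was at 805 ± 317 and 2083 ± 193 FPKM in the Th2 groups and was listed at 0 in all 6 lung libraries.

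In the eosinophil libraries the question was whether amphiregulin changed these genes, and none was called. Of the 10 genes 0 were called in either direction with limma, with or without the replicate number as a block, where 0.206% of the 12636 genes tested were called, 0.0317% higher and 0.174% lower. With the block 1.12% were called, 0.53% higher and 0.586% lower, and the unadjusted p was below 0.05 for 3.11% of all genes and for 0 of the 10. The groups overlapped for all 10, and did not overlap for 6.69% of all genes tested. The median log2 difference was -0.16 over the 10 genes and 0.02 over all genes tested.

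For IL7R and IL9R the libraries of a group differed by more than the group means. IL7R was at 106, 208 and 39.5 FPKM without amphiregulin and at 109, 111 and 28.0 FPKM with it, in libraries 2, 3 and 4. IL9R was at 46.4, 36.1 and 113 FPKM without and at 46.3, 58.0 and 120 FPKM with it. Library 4 of each group was thus the lowest for IL7R and the highest for IL9R.

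CCR3, the eotaxin receptor of eosinophils, was also highest in library 4 of each group, at 136.5 and 90.2 FPKM against 28.5 to 72.2 FPKM in the rest. The T cell marker list summed to between 160 and 366 FPKM without amphiregulin and between 93.9 and 204 FPKM with it, and the log2 difference was negative for all 7 of its genes, 0 of them called. CD3E, for example, was at 119, 93.5 and 53.3 FPKM without and at 65.9, 51.7 and 27.6 FPKM with amphiregulin. The part of other cells in the IL7R and IL9R levels was not tested.

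IL2RB and JAK3 had the most negative differences. IL2RB was at 14.5, 5.19 and 12.5 FPKM without amphiregulin and at 9.89, 3.41 and 8.30 FPKM with it, and JAK3 at 11.9, 12.1 and 4.50 FPKM and at 7.60, 7.96 and 3.40 FPKM. Each was lower with amphiregulin in 3 of 3 pairs of equal number, while the groups overlapped. IL2RG, among others, was also lower in each pair, and the share of all genes tested that did so was not counted. The log2 difference was -0.51 for IL2RB (SE 0.483, adjusted p = 0.999, limma; SE 0.193 and adjusted p = 0.373 with the block) and -0.49 for JAK3 (SE 0.453, adjusted p = 0.999, limma; SE 0.201 and adjusted p = 0.429 with the block).

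The gamma chain gene IL2RG was at 136, 101.3 and 62.9 FPKM without amphiregulin and at 92.1, 100.8 and 60.0 FPKM with it, and IL4R was the steadiest of the 10, at 73.6, 71.2 and 70.3 FPKM and at 72.9, 85.4 and 70.0 FPKM. IL2RA lay between 1.22 and 3.31 FPKM in all 6 libraries and IL21R between 1.58 and 5.01 FPKM, so the high-affinity IL-2 receptor chain was near the filter. STAT5A lay between 24.5 and 49.5 FPKM and STAT5B between 38.0 and 61.7 FPKM. The sign of the difference was positive for 3 of the 10 genes, for 6 after rescaling to a common total (TPM), which raises the median of all genes from 0.02 to 0.20, and for 2 after median-of-ratios or quantile scaling.

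Some genes taken as STAT5 targets were higher with amphiregulin in each pair, while the receptor genes were not called. Whether these receptors or STAT5 acted on them was not tested. CISH, which encodes an inhibitor of STAT5 signalling, was at 42.2, 24.6 and 123 FPKM without amphiregulin and at 146, 124 and 247 FPKM with it. SOCS1, an inhibitor of Janus kinases, was at 23.1, 23.5 and 32.9 FPKM and at 55.9, 52.5 and 130 FPKM. Neither gene's groups overlapped, and those of 6.69% of all genes tested did not. The share of all genes that were higher in each pair was not counted. Without the block neither was called (log2 differences 1.69 and 1.44, adjusted p = 0.999 and 0.987, limma), and with it both were (SE 0.256 and 0.209, adjusted p = 0.0371 and 0.0317, limma), but not when pair 3 was left out.

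Of 14 STAT5 targets 13 were tested, 0 were called without the block and 2 higher with it. Of all genes tested 0.0317% were called higher without the block and 0.53% with it. The list's median log2 difference was 0.55, against 0.02 over all genes tested. SOCS3 was at 7.41 ± 2.33 and 16.9 ± 3.58 FPKM, with an adjusted p of 0.902 without the block and 0.0518 with it (limma). The remaining lists gave 0 calls with or without the block: 8 other Janus kinase and STAT genes with a median log2 difference of -0.06, which turns positive after rescaling to a common total (TPM), 10 adaptors and phosphatases with a median of 0.11, and 3 partner chains with a median of -0.08. All 7 ligands were below the filter, and IL9 and IL21 were listed at 0. Markers of other cells moved between these groups too. The dendritic cell list summed to between 0.571 and 1.83 FPKM without amphiregulin and between 9.26 and 57.1 FPKM with it, and the neutrophil list to between 8101 and 21393 FPKM and between 6738 and 14331 FPKM, with a negative log2 difference for all 5 of its genes. The dendritic cell sum was carried by CD209, at 0.376 ± 0.199 and 32.4 ± 22.6 FPKM, while CLEC9A and XCR1 averaged at most 0.251 FPKM. CD209 was at most 0.532 FPKM without amphiregulin, so it passed the filter through the libraries with amphiregulin alone. With the block CD209 and the macrophage marker MRC1 (1.82 ± 1.15 to 55.3 ± 38.5 FPKM) were called higher, and the monocyte marker CD14 (160 ± 127 to 8.07 ± 6.31 FPKM) and the neutrophil marker CAMP (311 ± 298 to 22.5 ± 13.9 FPKM) lower. Their part in the CISH and SOCS1 differences was not tested.

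In the lung the comparison was between dGATA and wild-type mice after OVA, and again none of the 10 genes was called. With limma 0 were called in either direction, where 0.0947% of the 13727 genes tested were called, 0.0437% higher and 0.051% lower, and the unadjusted p was below 0.05 for 1 of the 10 and for 6.84% of all genes. The median log2 difference was -0.04 over the 10 genes and -0.03 over all genes tested. Rescaling to a common total (TPM) moved the latter to -0.13 and the median of the 10 to -0.14.

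Stat5b was the gene whose groups did not overlap, against 14.1% of all genes tested. It was at 16.8, 17.3 and 16.4 FPKM in wild-type lung and at 14.6, 14.1 and 15.01 FPKM in dGATA lung. All 3 dGATA libraries lay below all 3 wild-type libraries, by a small amount. The log2 difference was -0.20 (SE 0.0716, adjusted p = 0.675, limma).

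Stat5a was also below the wild-type mean in dGATA libraries 1, 2 and 3, at 65.5, 98.4 and 94.1% of it, but its groups overlapped. The remaining genes had dGATA libraries on both sides of the wild-type mean. In dGATA library 1 all 10 genes were below the wild-type mean, at a median of 59.8% of it and between 24.7 and 98.0%. In dGATA library 2 only Stat5a and Stat5b were below it, the median was 136% and the highest value 306%, for Il7r. In dGATA library 3 it was 5 of 10, with a median of 106%. Il21r shows the spread, at 8.79, 4.46 and 4.88 FPKM in wild type and at 1.49, 8.32 and 4.98 FPKM in dGATA lung, and so does Il7r, at 11.9, 7.83 and 8.71 FPKM and at 6.47, 29.0 and 11.3 FPKM.

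Some marker lists were also low in dGATA library 1 and high in library 2. The 7 T cell markers summed to 96.6, 78.3 and 84.6 FPKM in wild-type lung and to 49.8, 127 and 100.1 FPKM in dGATA libraries 1, 2 and 3, and the macrophage and monocyte list to 279.6, 255 and 270.4 FPKM and to 118, 441 and 229 FPKM. The 4 B cell markers summed to 167, 95.7 and 62.0 FPKM and to 40.9, 107 and 136 FPKM, low in library 1 but highest of the dGATA libraries in library 3. None of these markers was at 0 in any lung library, and none was called. The eosinophil list followed the genotype instead, at 18.5 to 27.8 FPKM in wild-type and 6.35 to 9.18 FPKM in dGATA lung, with 2 of the 4 tested genes called lower. Ccr3 and Prg2 of that list were at most 0.252 and 0.677 FPKM in dGATA lung, so they passed the filter through the wild-type libraries alone. In dGATA library 1 the epithelium, endothelium and neutrophil lists were above the wild-type mean, at 140, 132 and 112% of it. The part of all these markers in the levels of the receptor genes was not tested.

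**Figure D5:**
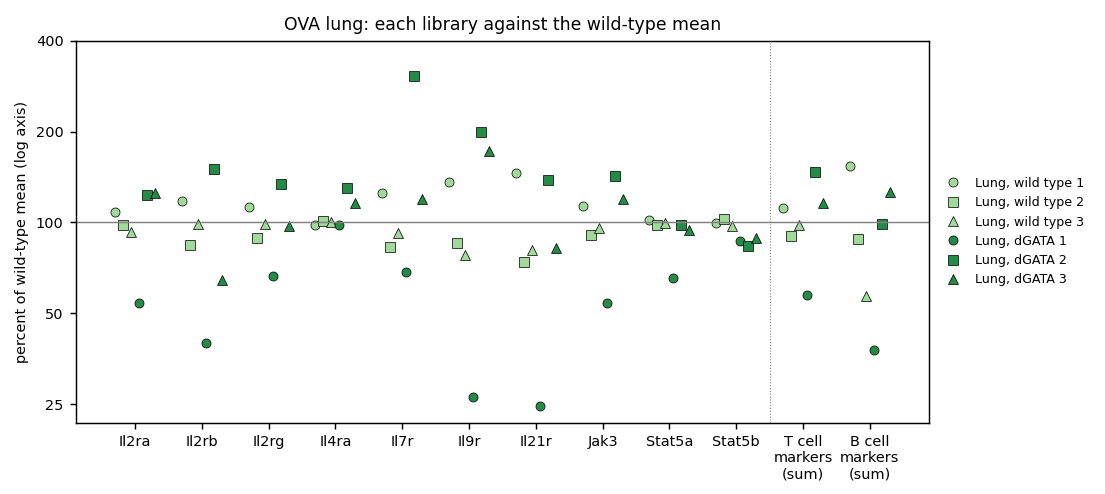
Level of each of the 10 genes in each lung library as a percent of the wild-type mean (log axis), with the summed T cell and B cell marker lists at the right; light symbols are wild type, dark symbols dGATA. The dGATA library 1 symbols all lie below 100%, down to 24.7% for Il21r, and library 2 reaches 306% for Il7r.

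Jak3 was at 17.9, 14.4 and 15.2 FPKM in wild-type lung and at 8.56, 22.6 and 18.9 FPKM in dGATA lung, and Il2rg at 77.5, 61.0 and 68.3 FPKM and at 45.9, 92.8 and 67.1 FPKM, both with dGATA libraries on either side of all wild-type libraries. Il4ra was the most even receptor gene, at 37.3, 38.4 and 38.0 FPKM and at 37.1, 49.3 and 43.8 FPKM (log2 difference 0.18, adjusted p = 0.805, limma). The Il2rg share of the 7 receptor genes was 50.5 ± 1.02% in wild-type and 47.4 ± 1.15% in dGATA lung (SD, n = 3), without overlap (exact two-sided permutation p = 0.1, adjusted 0.225). Of the pathway lists, 0 genes were called among 4 ligands, 3 partner chains, 8 other Janus kinase and STAT genes, 14 STAT5 targets and 10 adaptors and phosphatases tested. In those lists the smallest unadjusted p among ligands belonged to Il4, at 1.58 ± 0.306 and 0.490 ± 0.425 FPKM (adjusted p = 0.583, limma), and among STAT5 targets to Socs2, at 35.1 ± 1.83 and 43.7 ± 3.03 FPKM (adjusted p = 0.574, limma). Il4 was at most 0.770 FPKM in dGATA lung, so it passed the filter through the wild-type libraries alone.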

How the data were processed

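RNA from 18 libraries was taken with TRIzol and prepared with a stranded mRNA kit, per the labels' protocols. The deposited values are gene-level FPKM. The submitters' processing notes name Bowtie 0.12.8, TopHat 1.3.2, Cufflinks 2.0.2 and the build mm10 as what the authors used. Read counts were not used here, so total depth is unknown and no count model was fitted.

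Entries of the same symbol were summed. Of the human symbols 114 were left out as Y-linked or X-inactivation genes, with the pseudoautosomal receptor gene kept. The 6 libraries of a comparison were fitted apart from the rest. Genes reaching 1 FPKM in at least 3 of them entered as log2(FPKM + 1), in limma 3.58.1 (trend option, R 4.3.3), and a gene was called when its Benjamini-Hochberg adjusted p over all tested genes was below 0.05. Ratios within a library, and genes below the filter, were compared by exact two-sided permutation of the 6 libraries.

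Eosinophil libraries of equal number deviated together across genes after removal of group means (correlations 0.399, 0.356 and 0.670), so they were treated as pairs and the number was used as a block in a further fit. Libraries 2 and 3 of opposite groups also correlated, at 0.308 and 0.281. Library 4 and libraries of other numbers correlated between -0.506 and -0.428. The values thus set library 4 apart more than they tell pair 2 from pair 3. Libraries of equal number did not deviate together in the lung.

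The 10 genes and the lists were chosen with earlier results of these data known. Named genes are all 10 members, up to 4 genes with the smallest p of each list, defining markers, and the 3 genes nearest in pattern to the 2 members with the largest Th2 differences on the log2(FPKM + 1) scale. Genes outside this rule (Jak2, Stat6, Bcl6 and Cish in the Th2 cells) were chosen after their values were seen. Promoter windows are from RefSeq. The values of 1 gene of the lists are not reported here.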

Additional observations from a re-analysis of the deposited data

How the results depend on the processing

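Alternatives were pseudocounts of 0.1 and 0.5, no filter, a filter at 5 FPKM, rescaling to TPM, median-of-ratios and quantile scaling, leaving out small RNA features, the highest entry per symbol, array weights, leaving out each library, a replicate block, a model over the 12 mouse libraries, and for the Th2 cells the title spelling as a block and libraries 1 to 4 alone, these last chosen after seeing the data. No paired analysis was possible by replicate number in the Th2 cells because no number recurs between their groups; the title spelling was the block that could be used.

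In the Th2 cells, 1680 genes were called higher and 2651 lower; the lower count was 1636 after rescaling to TPM and 4050 with array weights. Of the 10 genes 0 were called lower, but 2 with array weights, 1 with the title spelling as a block and 3 in libraries 1 to 4 alone. Leaving out 1 library gave 1009 to 1540 higher and 1482 to 3122 lower, with 3 to 5 of the 10 genes higher (3 without library 2 or 4) and 0 to 1 lower (1 without library 6). No called difference of the 10 genes changed sign in any alternative.

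In the eosinophils, 4 genes were called higher and 22 lower: 1 and 6 with a pseudocount of 0.1, 2 higher with no filter, 2 and 6 with a filter at 5 FPKM, 8 higher after rescaling to TPM, 1 and 6 with quantile scaling, 0 and 0 without small RNA features, and 1875 and 1361 with array weights, whose estimation did not converge and where 2 of the 10 genes, IL2RG and JAK3, were called lower. The replicate block gave 67 and 74, and 119 and 77 without small RNA features. Leaving out 1 library gave 0 to 25 and 0 to 24, and leaving out a pair under the replicate block 4 to 375 and 5 to 206 (129 and 92 without pair 2). The block called 0 of the 10 genes.

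In the lung, 6 genes were called higher and 7 lower: 4 lower with a filter at 5 FPKM, 558 and 878 with array weights, which did not converge, 2 and 1 with the replicate block (equal numbers correlated at -0.286, -0.116 and -0.243), 19 and 77 in the model over 12 libraries, and 0 to 3 and 0 to 6 when 1 library was left out. None of the 10 genes was called in any of these. Genes below 5 FPKM give no value under the stricter filter.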
